A study of Mus musculus with 6 samples.

Results

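The 10 genes described here are the effectors and the feedback genes of the canonical Wnt pathway: Lrp6, Znrf3, Rnf43, Axin1, Axin2, Apc, Ctnnb1, Tcf7, Tcf7l2 and Lef1. They were chosen by symbol from the 20273 gene rows of the expression table, and each symbol has 1 row. RNA of murine small cell lung cancer (SCLC) cells was sequenced in 6 libraries, 3 of ERBB2 KO cells (ERBB2 KO 1 to 3) and 3 of WT cells (WT 1 to 3). In the ERBB2 KO cells the gene Erbb2, which encodes a receptor tyrosine kinase, had been targeted with a Cas9 construct. Puromycin selection and the sorting of single clones followed. The study calls the WT cells wild type and does not say whether they went through any of these steps. Cells of both groups are of lung origin and were grown in RPMI medium, and the study derives its murine lines from tumors of mice with a conditional deletion of Rb1 and Trp53, so both groups are taken to share that loss. Which line or clone gave which library is not given in the sources used here, so the p-values below measure the spread between these libraries and cover no further level of replication.

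In the canonical Wnt pathway, a secreted Wnt ligand binds a Frizzled receptor and the co-receptor LRP6 on the cell surface. Without ligand, the destruction complex built around AXIN and APC marks beta-catenin, the product of Ctnnb1, for breakdown. With ligand, beta-catenin accumulates, enters the nucleus and switches on genes together with the TCF/LEF factors. Several of those genes, Axin2, Rnf43, Znrf3, Lef1 and Tcf7 among them, encode parts of the pathway itself, so that their transcripts are widely read as a sign of Wnt activity, although this depends on the tissue. In the mature lung the pathway is best known for its role in epithelial progenitors and in repair.

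Expression is given in CPM, the reads of a gene scaled to a library total of 1000000, and 1 read was worth 0.0754 to 0.112 CPM at library totals of 8927461 to 13255671 reads. Differences are ERBB2 KO minus WT on log2(CPM + 1), a scale that understates the change of weakly expressed genes. Erbb2 itself had 12.1, 6.19 and 2.80 CPM in ERBB2 KO 1 to 3, against 10.7, 3.95 and 6.64 CPM in WT 1 to 3, so that the transcript level does not separate the groups (log2 difference -0.10, SE 0.52, limma adjusted p = 0.941). The study reports that it checked the knockout by western blot and flow cytometry, at the protein level, which these RNA values do not measure. Xist, the RNA of the inactive X chromosome, had 208 and 178 CPM in WT 2 and WT 3 and at most 0.112 CPM in the other 4 libraries, so these 2 libraries differ from the rest in a way the genotype label does not give. Over all tested genes, ERBB2 KO 2 and ERBB2 KO 3 correlated with each other at r = 0.976 and with WT 1 at 0.959 and 0.955, and WT 2 and WT 3 with each other at 0.971, whereas ERBB2 KO 1 reached at most 0.913 with any library. Summed markers of fibroblasts were 321, 80.6 and 49.0 CPM in ERBB2 KO 1 to 3, against 54.7, 58.1 and 229 CPM in WT 1 to 3. Each high sum rested mostly on 1 gene, with 267 CPM of Dcn in ERBB2 KO 1 and 200 CPM of Col1a2 in WT 3. In ERBB2 KO 1 Pdgfra and Pdgfrb were also at their highest (30.5 and 15.8 CPM), while Col1a2 had 0.896 CPM. In WT 3 Pdgfra had 0.151 and Col3a1 0.830 CPM. Summed immune markers were 43.8, 12.5 and 16.3 CPM in ERBB2 KO 1 to 3, against 13.7, 22.2 and 17.9 CPM in WT 1 to 3. Of these, Cd68 and Lyz2 were higher in every ERBB2 KO library than in any WT library, Csf1r had 7.04 to 12.0 CPM in ERBB2 KO and 10.7 to 20.6 CPM in WT, and Ptprc, which marks all white blood cells, was at or below 0.415 CPM, while endothelial markers stayed at or below 0.831 CPM and lung epithelial markers at or below 1.87 CPM in every library. Of 13 listed neuroendocrine and SCLC markers, 7 have a row. Syp was at or below 0.560 CPM in every library, and Chgb, Dll3 and Scg2 were at or below 0.242 CPM. Ncam1 had 121 to 353 CPM in ERBB2 KO libraries and 277 to 1253 CPM in WT libraries. Uchl1 had 0 CPM in ERBB2 KO 1 to 3, against 0.546, 26.6 and 10.7 CPM in WT 1 to 3, and Rest, a repressor of neuronal genes, had 167 to 233 CPM in ERBB2 KO and 167 to 256 CPM in WT. Among the positive markers with a row, Ncam1 alone was thus read in every library above 1 CPM. The sample titles name SCLC and no neuroendocrine state, and whether the cells were in such a state was not tested. The study reports that it regularly assessed neuroendocrine markers in its lines.

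The TCF/LEF factors recognise a short DNA sequence that begins with CTTTG, and RefSeq promoter windows (GRCm38.p6, from 250 bases before to 50 bases after a start site) were searched on both strands for CTTTG followed by AA, AT, TA or TT. Windows were given for 6 of the 10 genes, Rnf43, Axin2, Ctnnb1, Tcf7, Tcf7l2 and Lef1, and Apc, Axin1, Znrf3 and Lrp6 are named only. A match occurred in 2 of the 13 windows of these 6 genes, and 16.9% of all 32851 windows hold one. The 250 bases before the start are printed for both windows with a match, and for Axin2, the usual reporter gene of the pathway. Capitals mark the matches, and a window without capitals holds none of the 4 forms.
Lef1, start site within the gene, chr3:131156044-131156293, plus strand, with the reverse complement of CTTTGTA at position -147 from the start: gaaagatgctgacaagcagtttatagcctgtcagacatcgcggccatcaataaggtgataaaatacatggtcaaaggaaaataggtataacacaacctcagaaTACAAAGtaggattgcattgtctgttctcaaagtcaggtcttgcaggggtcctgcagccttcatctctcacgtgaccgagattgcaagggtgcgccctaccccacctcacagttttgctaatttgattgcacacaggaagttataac
Tcf7l2, start site within the gene, chr19:55895071-55895320, plus strand, with CTTTGTT at position -14: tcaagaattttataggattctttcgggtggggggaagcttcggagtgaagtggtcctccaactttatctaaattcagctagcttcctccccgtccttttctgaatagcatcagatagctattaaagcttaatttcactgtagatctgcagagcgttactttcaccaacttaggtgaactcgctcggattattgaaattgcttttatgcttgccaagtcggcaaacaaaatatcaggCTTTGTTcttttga
Axin2, start site within the gene, chr11:108920099-108920348, plus strand: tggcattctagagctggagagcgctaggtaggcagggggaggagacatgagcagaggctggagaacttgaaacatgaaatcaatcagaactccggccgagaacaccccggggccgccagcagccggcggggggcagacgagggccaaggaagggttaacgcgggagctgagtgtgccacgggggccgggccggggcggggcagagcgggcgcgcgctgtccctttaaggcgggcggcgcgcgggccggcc
The windows at the first start sites of Lef1 and Tcf7l2 and the 1 window given for Axin2 hold no match. A match is a description of the letters and not evidence of binding, and its absence in so short a window says nothing about sites elsewhere.

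Divided by the length of the GENCODE M39 canonical transcript, the mean level over the 6 libraries was highest for Axin1 (16.5 ± 2.62 CPM per kb, SD, n = 6) and Tcf7l2 (11.3 ± 3.96 CPM per kb), whose ranges over the libraries overlapped. Apc (4.66 ± 1.85), Lrp6 (3.43 ± 0.809), Znrf3 (2.63 ± 0.753) and Ctnnb1 (1.95 ± 0.201 CPM per kb) came next, each with a range that overlapped that of its neighbour in the order. All 6 libraries had more Tcf7l2 per kb (at least 7.85) than any library had Apc (at most 6.91 CPM per kb). Lef1 (1.36 ± 1.73), Rnf43 (0.524 ± 0.380) and Tcf7 (0.487 ± 0.126 CPM per kb) were low by their means, with overlapping ranges. Lef1 ran from 0 to 4.56 CPM per kb, and its highest value lay above every library's value for Lrp6, Znrf3 and Ctnnb1. Axin2 was last with 0.0935 ± 0.0879 CPM per kb, below every library's value for Tcf7. Division by length fits libraries that cover whole transcripts. The labels name such a preparation, whereas the methods of the study describe one that reads 3' ends, to which it would not apply.

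Between ERBB2 KO and WT, no member of the pathway core passed the test. The test covered 9 of the 10 members among the 11803 genes that reached 1 CPM in 3 or more libraries, and Axin2 did not reach that level. Of the 9, 7 were lower and 2 higher in ERBB2 KO, with a median log2 difference of -0.44, beside -0.04 over all tested genes, of which 53.2% were lower. By limma, 0 of the 9 members passed at an adjusted p below 0.05, as did 0 of 11803 genes (0%), and the lowest adjusted p of a member was 0.434. At an unadjusted p below 0.05, 0 of 9 members were called, beside 1561 genes or 13.2% of all tested, and voom on the recovered reads likewise called 0 members. The values of the groups overlapped for each of the 9 members, while 10.6% of all tested genes were lower and 8.76% higher in ERBB2 KO without overlap, 19.4% in all. The 95% intervals of the differences remain wide, so these data do not show that the members were equal in both groups. For Lef1 the interval runs from 0.0872-fold to 1.42-fold in CPM + 1, which at so low a level is not the fold in CPM. On the log2 values as deposited, the difference of Lef1 was -2.88. Array quality weights, which gave ERBB2 KO 1 a weight of 0.268 and WT 1 a weight of 0.418, changed the calls. With them 1759 genes passed (14.9%), among them Rnf43 (log2 difference -1.57, adjusted p = 0.0257), Apc (-1.04, adjusted p = 0.0309) and Lef1 (-2.89, adjusted p = 0.0264). Without ERBB2 KO 1, 30 genes passed, and without WT 1, 146 genes, with 0 members in either case. Members without overlap numbered 4 without ERBB2 KO 1 (Rnf43, Apc, Ctnnb1 and Lef1), beside 37.9% of all tested genes, and 3 without WT 1 (Rnf43, Apc and Tcf7l2), beside 42.5%. There was 1 without ERBB2 KO 2 (Lrp6), beside 27.9%, and 1 without WT 3 (Znrf3), beside 25.3%. There were 0 without ERBB2 KO 3 or WT 2, beside 28.2% and 22.9% of all tested genes. In bulk RNA, fewer cells that express a gene and less RNA of it per cell cannot be told apart.

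**Figure D1:**
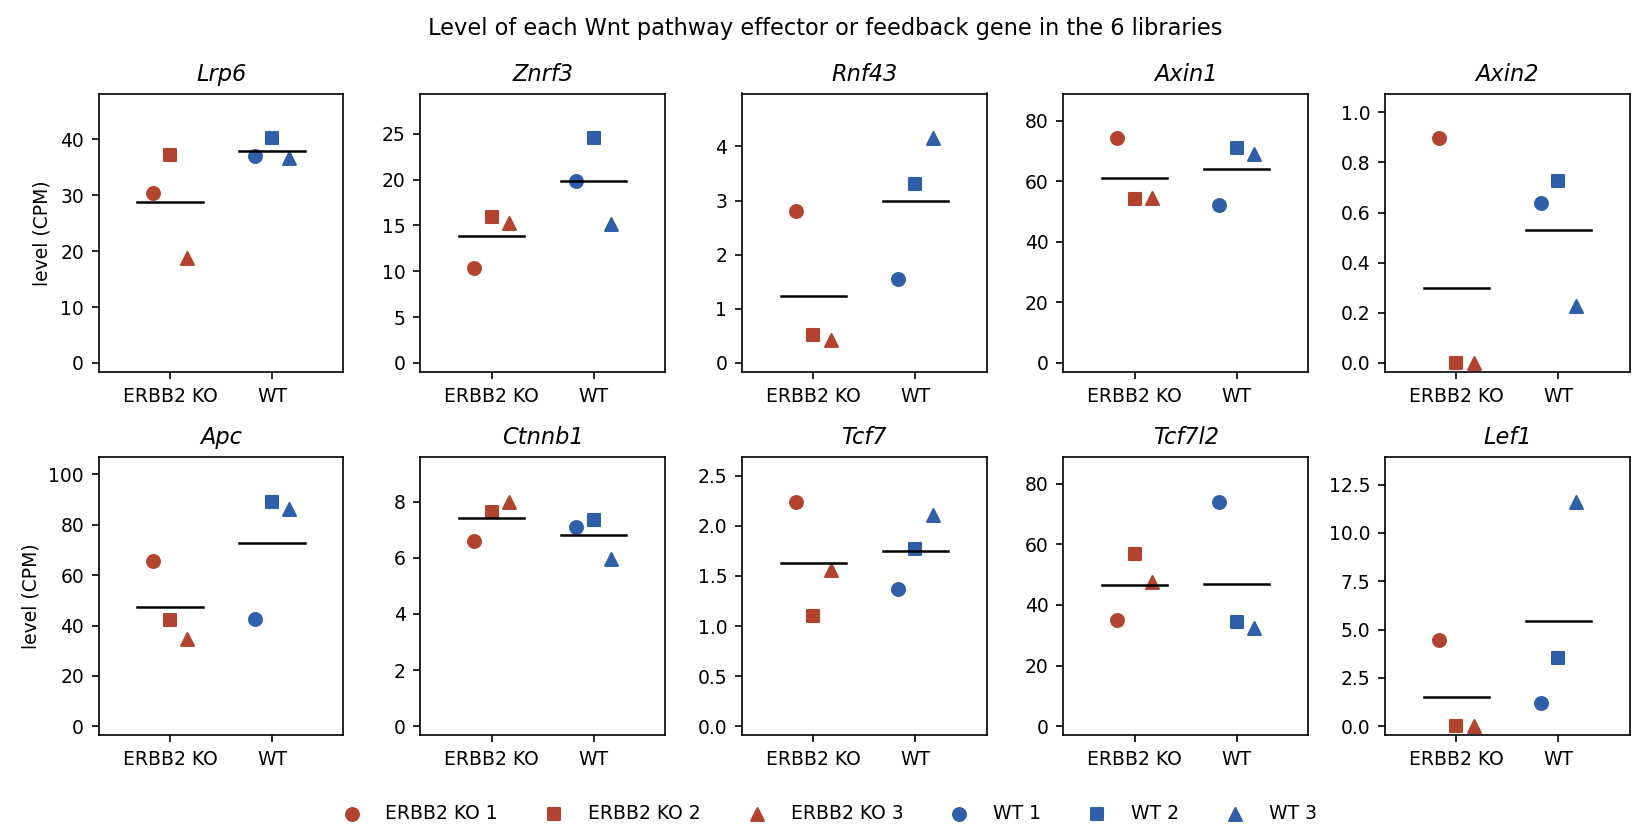
Level in CPM (vertical axis, starting near 0 and scaled for each gene) of the 10 genes in each library, ERBB2 KO left and WT right, with the replicate number as marker and the group mean of 3 libraries as a line. Lef1 and Axin2 were at 0 CPM in ERBB2 KO 2 and ERBB2 KO 3, Ctnnb1 lay between 5.96 and 8.0 CPM in every library, and the groups overlap in each tested gene.

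At the cell surface, Lrp6, the co-receptor that carries the Wnt signal into the cell, had 30.4, 37.1 and 18.7 CPM in ERBB2 KO 1 to 3, against 37.1, 40.1 and 36.6 CPM in WT 1 to 3. The WT libraries lay close together, with a mean of 37.9 ± 1.92 CPM (SD, n = 3), whereas the ERBB2 KO libraries spread around 28.7 ± 9.33 CPM, and ERBB2 KO 2 lay within the WT range. The log2 difference was -0.44 (SE 0.27, limma adjusted p = 0.494). Without ERBB2 KO 2, both remaining ERBB2 KO libraries were below every WT library, and without ERBB2 KO 3 the difference was -0.17. Lrp6 sits on chromosome 6 (chr6:134446476-134566913, mm10).

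Znrf3 (chr11:5276329-5444847), a membrane ubiquitin ligase that removes Frizzled receptors and so restrains the pathway, had 10.3, 15.9 and 15.3 CPM in ERBB2 KO 1 to 3, against 19.8, 24.5 and 15.2 CPM in WT 1 to 3. WT 3 reached into the ERBB2 KO range, and the log2 difference was -0.49 (SE 0.28, limma adjusted p = 0.467). Without WT 3, the groups no longer overlapped.

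Rnf43 (chr11:87663087-87735539), the related ligase of the same function and a common feedback target of beta-catenin, was far weaker. It had 2.80, 0.509 and 0.415 CPM in ERBB2 KO 1 to 3 (25, 6 and 4 reads), against 1.55, 3.30 and 4.15 CPM in WT 1 to 3 (17, 41 and 55 reads). ERBB2 KO 1 was above WT 1, which was the lowest of the WT libraries, and both remaining ERBB2 KO libraries were below every WT library. The exact 95% Poisson intervals of ERBB2 KO 2 (0.187 to 1.11 CPM) and ERBB2 KO 3 (0.113 to 1.06 CPM) lay below those of WT 2 (2.37 to 4.48 CPM) and WT 3 (3.13 to 5.40 CPM) and overlapped that of WT 1 (0.902 to 2.48 CPM), intervals that cover counting error alone. On the log2 scale the difference was -0.93 (SE 0.49, limma adjusted p = 0.434), the lowest adjusted p of the 9 members. The rows 1110028F11Rik and Gm25968 of the RefSeq table overlap Rnf43, so reads of these genes could not be separated with certainty.

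In the destruction complex, the scaffold Axin1 (chr17:26131217-26195811) had 74.2, 54.1 and 54.6 CPM in ERBB2 KO 1 to 3, against 52.1, 71.1 and 69.0 CPM in WT 1 to 3. ERBB2 KO 1, WT 2 and WT 3 were high and the other 3 libraries low, so that each group held both levels. The log2 difference was -0.07 (SE 0.22, limma adjusted p = 0.899), and its sign turned when ERBB2 KO 2 (0.01) or WT 2 (0.01) was left out.

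Axin2 (chr11:108917828-108950783), the inducible sister of Axin1 and the most widely used reporter of beta-catenin activity, was close to the limit of detection in every library. It had 8, 0 and 0 reads in ERBB2 KO 1 to 3 (0.896, 0 and 0 CPM), against 7, 9 and 3 reads in WT 1 to 3 (0.637, 0.725 and 0.226 CPM). A count of 0 allows up to 3 reads, which equals 0.254 CPM for ERBB2 KO 2 and 0.312 CPM for ERBB2 KO 3. The exact Poisson intervals of these libraries reach further, to 0.313 CPM for ERBB2 KO 2 and 0.383 CPM for ERBB2 KO 3. The interval of ERBB2 KO 1 (0.387 to 1.77 CPM) lay just above both of these upper ends. That of WT 2 (0.332 to 1.38 CPM) lay above the upper end of ERBB2 KO 2 only. Those of WT 1 (0.256 to 1.31 CPM) and WT 3 (0.0467 to 0.661 CPM) lay above neither upper end. The groups overlapped, and Axin2 was not tested.

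Apc, whose product holds beta-catenin in the complex and which lies on chromosome 18, had 65.8, 42.1 and 34.6 CPM in ERBB2 KO 1 to 3, against 42.8, 89.2 and 86.4 CPM in WT 1 to 3. WT 2 and WT 3 were above every other library, and WT 1 lay among the ERBB2 KO libraries. This amounted to a log2 difference of -0.58 (SE 0.36, limma adjusted p = 0.491). It became 0.10 without WT 2 and WT 3, the libraries with Xist, and -0.92 without WT 1.

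**Figure D2:**
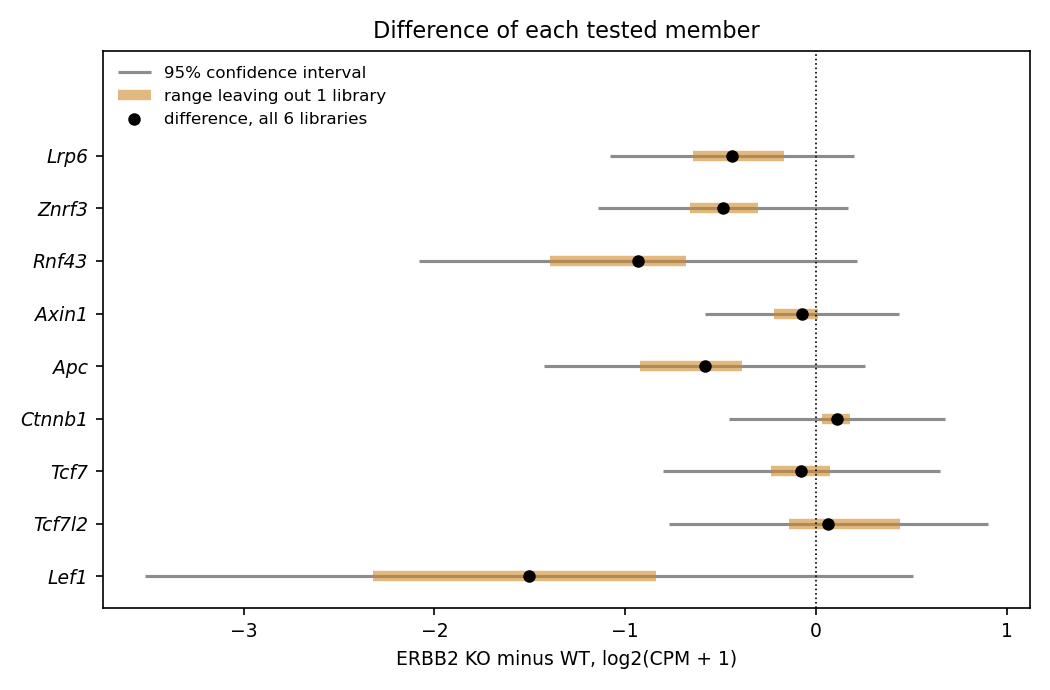
ERBB2 KO minus WT difference on log2(CPM + 1) (horizontal axis) for the 9 tested members, with points for the fit on all 6 libraries, grey lines for its 95% confidence interval and orange bars for the range when each library is left out in turn. Every interval includes 0, and Lef1 (-3.52 to 0.51) has the widest.

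Ctnnb1 (chr9:120933400-120960507), which encodes beta-catenin, the effector of the pathway, had 6.61, 7.63 and 8.0 CPM in ERBB2 KO 1 to 3, against 7.10, 7.33 and 5.96 CPM in WT 1 to 3. The lowest and the highest library differed 1.34-fold, on 59 to 91 reads. Its SD over the 6 libraries on log2(CPM + 1) was 0.13, at percentile 2.81 of the tested genes, whose median was 0.40. Its mean of 7.11 CPM stood at percentile 27.3 of the tested genes. The SD was ranked among genes of all levels, on a scale that narrows the spread of weakly expressed genes. Without ERBB2 KO 1 the groups did not overlap in Ctnnb1, as in 37.9% of all tested genes. The log2 difference was 0.11 (SE 0.24, 95% interval -0.46 to 0.68, limma adjusted p = 0.865), and the interval covers a range from 0.728-fold to 1.6-fold in CPM + 1. These are transcript levels, and the stability of beta-catenin protein, through which the pathway acts, was not measured here.

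Among the TCF/LEF factors, which bring beta-catenin to DNA, Tcf7l2 (chr19:55741797-55933659) had the most reads of the family in every library, also per kb of transcript. It had 35.2, 56.8 and 47.5 CPM in ERBB2 KO 1 to 3, against 74.0, 34.2 and 32.4 CPM in WT 1 to 3. WT 1 was the highest and WT 2 and WT 3 the lowest of all 6 libraries, so the WT libraries stood on both sides of the ERBB2 KO libraries. ERBB2 KO minus WT came to 0.07 (SE 0.36, limma adjusted p = 0.945). It turned to -0.69 without WT 2 and WT 3, and to 0.44 without WT 1.

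Tcf7 (chr11:52246527-52283383), a factor best known from T cells, had 2.24, 1.10 and 1.56 CPM in ERBB2 KO 1 to 3 (13 to 20 reads), against 1.37, 1.77 and 2.11 CPM in WT 1 to 3 (15 to 28 reads). The exact Poisson intervals of all 6 libraries overlapped. The log2 difference was -0.08 (SE 0.31, limma adjusted p = 0.927). Tcf7 overlaps the protein-coding gene Skp1 in the RefSeq table, so reads of this region may be shared.

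Lef1 (chr3:131110297-131224357), a factor that is itself induced by Wnt signals in many tissues, varied most among the 9 tested members. It had 4.48, 0 and 0 CPM in ERBB2 KO 1 to 3 (40, 0 and 0 reads), against 1.18, 3.54 and 11.6 CPM in WT 1 to 3 (13, 44 and 154 reads). ERBB2 KO 2 and ERBB2 KO 3 held no read, and ERBB2 KO 1 was above WT 1 and WT 2. The 3 reads that a count of 0 allows equal 0.254 CPM for ERBB2 KO 2 and 0.312 CPM for ERBB2 KO 3, below the lower end of the exact 95% Poisson interval in WT 1 (0.630 CPM). Thus, both libraries differed from each WT library by more than counting error, while ERBB2 KO 1 did not follow them. On the log2 scale the difference was -1.50 (SE 0.86, limma adjusted p = 0.466) and -2.32 without ERBB2 KO 1. The SD over the 6 libraries on log2(CPM + 1) was 1.46, above that of 96.5% of the tested genes. ERBB2 KO 1 and WT 3, which held the most Lef1, also had the highest summed level of the 6 fibroblast markers with a row, out of 8 listed. The markers did not all move together. Dcn, Pdgfra and Pdgfrb were each highest in ERBB2 KO 1 (267, 30.5 and 15.8 CPM), where Col1a2 had its lowest level. In WT 3 Dcn was next highest, whereas Pdgfra and Pdgfrb had 0.151 CPM each. Col3a1 went the other way. It was highest in ERBB2 KO 2 and ERBB2 KO 3 (72.3 and 21.7 CPM), which held no Lef1 read, with 5.94 CPM in ERBB2 KO 1 and 0.830 CPM in WT 3. The part of cells with these markers in the Lef1 values was not tested.

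Tcf7l1, the fourth member of the factor family and often a repressor, was included to see how the family was made up in each library. It had 24.0, 8.73 and 16.3 CPM in ERBB2 KO 1 to 3, against 10.7, 19.8 and 25.3 CPM in WT 1 to 3. Of the summed reads of the 4 factors, 588 to 958 per library, Tcf7l2 took 53.4%, 85.2% and 72.7% in ERBB2 KO 1 to 3, against 84.9%, 57.7% and 45.4% in WT 1 to 3. The 95% Wilson intervals of ERBB2 KO 2 (82.6% to 87.5%) and WT 1 (82.5% to 87.0%) nearly coincided and lay above those of the other 4 libraries. Tcf7l1 took 36.4%, 13.1% and 25% in ERBB2 KO 1 to 3, against 12.2%, 33.4% and 35.4% in WT 1 to 3. Lef1 took 6.80%, 0% and 0% in ERBB2 KO 1 to 3, against 1.36%, 5.97% and 16.3% in WT 1 to 3. For the shares of 0% the Wilson intervals ended at 0.486% in ERBB2 KO 2 and 0.607% in ERBB2 KO 3. Tcf7 stayed between 1.57% and 3.40% in all 6 libraries. The shares of Tcf7l2, Tcf7l1 and Lef1 thus differed between libraries of 1 genotype, the Wilson intervals of Tcf7 overlapped within each genotype, and no share separated the genotypes.

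By exact two-sided permutation tests, the mean share of Tcf7l2 was 70.4% in ERBB2 KO and 62.6% in WT (p = 0.7), and that of Lef1 was 2.27% in ERBB2 KO and 7.86% in WT (p = 0.3). The mean shares were 24.8% in ERBB2 KO and 27.0% in WT for Tcf7l1 and 2.48% in ERBB2 KO and 2.50% in WT for Tcf7, both with an exact permutation p = 1. After adjustment over the 4 shares each permutation p was 1, and 3 libraries against 3 cannot give a p below 0.1. The summed level of the 4 factors was 65.9, 66.7 and 65.3 CPM in ERBB2 KO 1 to 3, against 87.2, 59.4 and 71.4 CPM in WT 1 to 3.

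**Figure D3:**
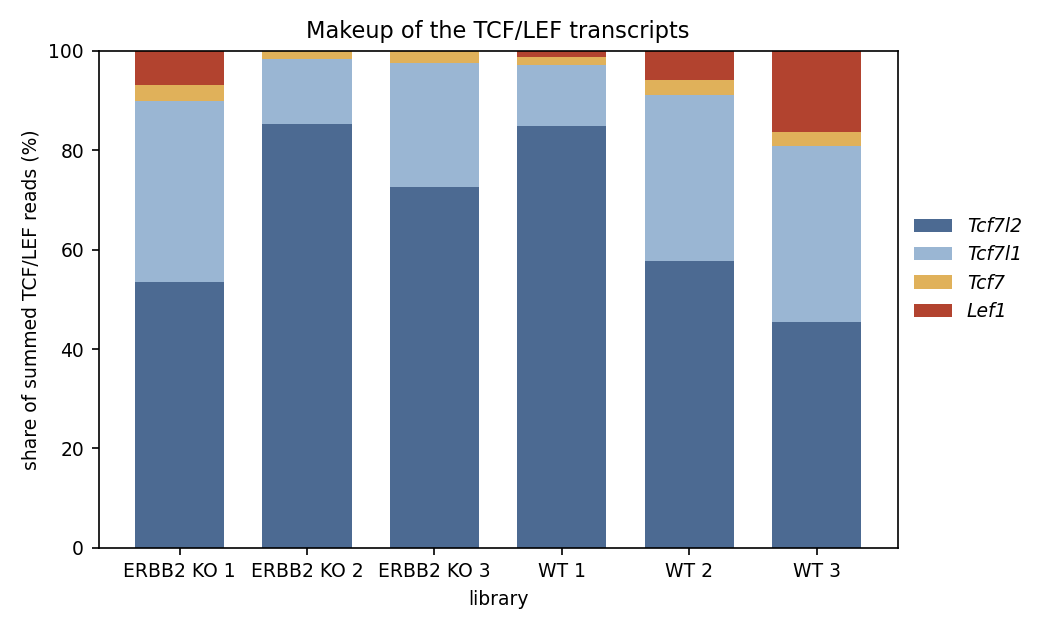
Share in percent (vertical axis) of Tcf7l2, Tcf7l1, Tcf7 and Lef1 in the summed reads of these 4 genes in each library, ERBB2 KO libraries left and WT libraries right. ERBB2 KO 2 and WT 1 have about 85% Tcf7l2, and WT 3 has 16.3% Lef1 whereas ERBB2 KO 2 and ERBB2 KO 3 have none.

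The genes most like each member over the 6 libraries were taken from 7384 tested genes with a mean of at least 10 CPM, by Pearson's r on log2(CPM + 1), as a description on 6 points that share library and depth. For Lef1 these were Dhx30 (r = 0.990) and Cdkn2d (0.989), for Rnf43 Nr2f6 and Rbm6 (0.994 and 0.993), for Apc Gtf3c4 and Phf6 (0.998 and 0.997), and for Axin1 Kank2 and Setd2 (both 0.994). Tcf7 ran with Mki67 (0.997) and Rp9 (0.995), Tcf7l2 with Lmf2 (0.988) and Pold4 (0.984), and Znrf3 with Nup54 (0.996) and Ehbp1l1 (0.988). Lrp6 was most like Fam58b (0.984) and Rprd1b (0.973), and Ctnnb1 Wipi2 (0.974) and Eif2b4 (0.969). With 6 points high values are common. An r of at least 0.95 was reached by 137 genes with Apc, 130 with Axin1 and 109 with Rnf43, but by 13 with Lrp6 and 5 with Ctnnb1.

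The rest of the pathway was covered by 8 lists with 130 genes, of which 112 have a row and 74 were tested. Of these 74 genes, 31 were higher and 43 lower in ERBB2 KO, 0 passed by limma (lowest adjusted p = 0.321), and 12 had an unadjusted p below 0.05 (16.2%, beside 13.2% of all genes). In 17 genes the groups did not overlap (23.0%, beside 19.4% of all genes), 6 higher and 11 lower in ERBB2 KO. The median log2 difference was -0.05, beside -0.04 over all tested genes. With array quality weights 16 of the 74 passed, beside 14.9% of all tested genes: Wnt4, Fzd2, Fzd7, Ryk, Lgr6, Csnk1a1, Btrc, Ctbp1, Smarca4, Ephb2, Bmp4, Cdx2, Msx1, Cdh2, Ctnna1 and Ctnnd1.

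**Figure D4:**
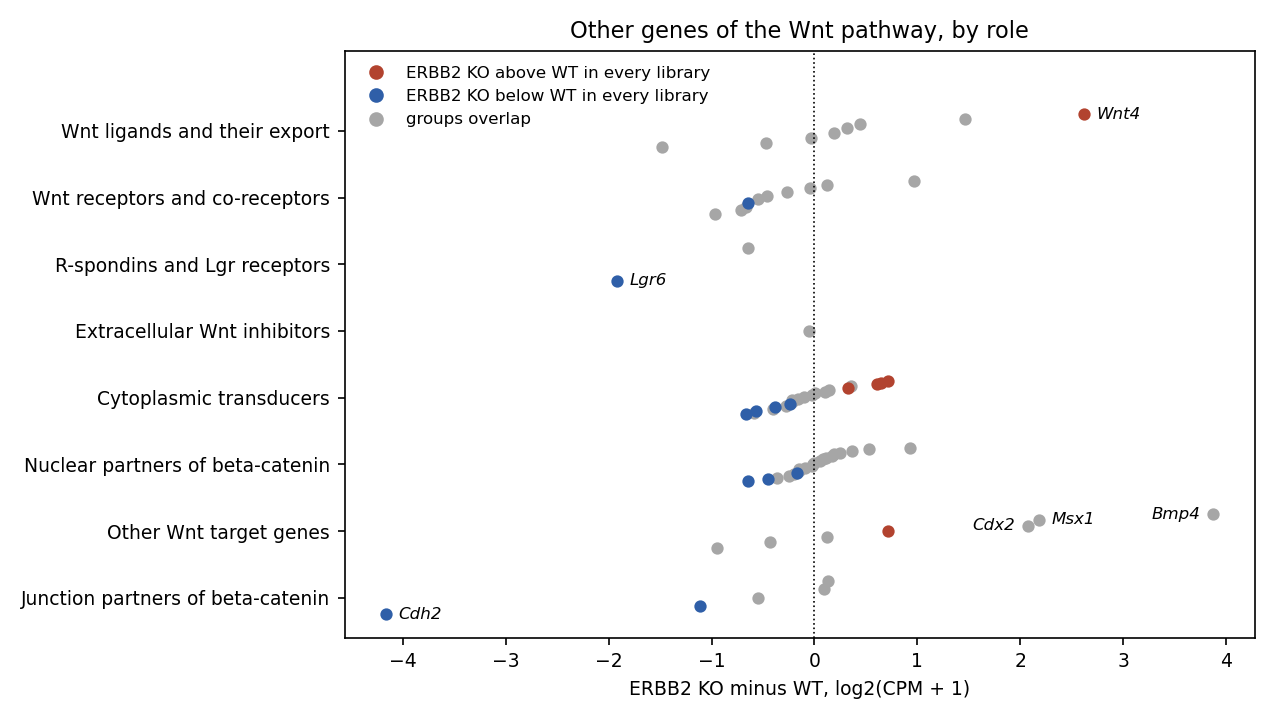
ERBB2 KO minus WT difference on log2(CPM + 1) (horizontal axis) of the 74 tested genes of the 8 lists (rows), 1 point per gene, spread vertically for legibility. Red points have every ERBB2 KO library above every WT library, blue points the reverse, and grey points overlap. Cdh2 (-4.16) lies farthest to the left and Bmp4 (3.88) farthest to the right, and 0 of the 74 passed the test.

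Of 21 genes for Wnt ligands and their export, 16 have a row and 9 reached 1 CPM in at least 1 library. Wnt4, a ligand that can act through canonical or other routes, had 5.71, 27.8 and 6.34 CPM in ERBB2 KO 1 to 3, against 4.73, 0 and 0.0754 CPM in WT 1 to 3. Every ERBB2 KO library was above every WT library, but WT 1 came within 1 CPM of ERBB2 KO 1 (log2 difference 2.62, SE 0.83, limma adjusted p = 0.347). Wnt7a had 0, 3.90 and 0.935 CPM in ERBB2 KO 1 to 3, against 10.6, 5.48 and 1.74 CPM in WT 1 to 3 (-1.48, adjusted p = 0.413), and Wnt6 had 42.6, 8.06 and 2.08 CPM in ERBB2 KO 1 to 3, against 2.00, 4.19 and 2.72 CPM in WT 1 to 3 (1.46, adjusted p = 0.481). The groups overlapped in both. Wnt10a and Wnt7b, ligands that can act through the canonical pathway, were read in every library, with 39.2 to 98.5 CPM of Wnt10a in ERBB2 KO and 33.2 to 79.0 CPM in WT. For Wnt7b the ranges were 39.1 to 44.0 CPM in ERBB2 KO and 21.7 to 46.9 CPM in WT. Wls, which carries Wnt proteins to the surface, had 49.0 to 68.0 CPM in ERBB2 KO and 52.9 to 59.5 CPM in WT. Wnt10a and Wls were named after their values were seen.

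Of the receptors, 10 of 15 were tested, 2 higher and 8 lower in ERBB2 KO, with 0 passing. Their median log2 difference was -0.51, beside -0.04 over all tested genes, of which 53.2% were lower. The groups overlapped for Ryk (log2 difference -0.97), Fzd3 (-0.71) and Fzd6 (-0.67). They did not for Fzd2 alone, beside 19.4% of all tested genes without overlap. Fzd2, a Frizzled receptor, had 26.4, 28.2 and 24.7 CPM in ERBB2 KO 1 to 3, against 37.0, 35.3 and 56.2 CPM in WT 1 to 3 (log2 difference -0.64, SE 0.23, limma adjusted p = 0.350). Among R-spondin ligands and their Lgr receptors, which shield Frizzled from Znrf3 and Rnf43, 2 of 7 were tested and neither passed. Lgr6 had 1.12, 4.83 and 8.31 CPM in ERBB2 KO 1 to 3, against 12.4, 17.9 and 23.6 CPM in WT 1 to 3, without overlap (log2 difference -1.92, SE 0.55, limma adjusted p = 0.330). Lgr4 had 4.14 to 4.92 CPM in ERBB2 KO and 4.53 to 10.7 CPM in WT (adjusted p = 0.432). Lgr5, a stem cell marker and Wnt target, was at or below 0.208 CPM in ERBB2 KO and at or below 1.00 CPM in WT. Lgr4 and Lgr6 thus had a higher mean in WT, but no difference was called in the main fit, and Lgr5 had too few reads to be tested. With array quality weights Lgr6 passed (log2 difference -1.66, limma adjusted p = 0.0292) and Lgr4 did not (limma adjusted p = 0.508).

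Of the extracellular inhibitors 1 of 13 was tested, the Dkk receptor Kremen1, which had 4.15 to 5.26 CPM in ERBB2 KO and 4.11 to 6.28 CPM in WT. Sfrp1, which binds Wnt ligands, had 79.3 CPM in ERBB2 KO 1 and at most 0.546 CPM in any other library. Notum, an enzyme that inactivates Wnt proteins and a feedback target in several tissues, had 0.672, 3.99 and 0.208 CPM in ERBB2 KO 1 to 3, against 3.55, 0 and 0.0754 CPM in WT 1 to 3. Sfrp1 and Notum were named after their values were seen.

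Of the cytoplasmic transducers 20 were tested, with a negative difference in 12 and a positive one in 8, and 0 passed. For 8 of the 20 the groups did not overlap, 4 in each direction, beside 19.4% of all tested genes. Whether 8 of 20 departs from that share was not tested. Csnk1a1, the kinase that primes beta-catenin for breakdown, had 187, 206 and 215 CPM in ERBB2 KO 1 to 3, against 257, 395 and 328 CPM in WT 1 to 3 (log2 difference -0.67, SE 0.20, limma adjusted p = 0.336). Its relative Csnk1d had 206, 156 and 179 CPM in ERBB2 KO 1 to 3, against 136, 86.3 and 137 CPM in WT 1 to 3 (log2 difference 0.61, adjusted p = 0.350). Btrc, the ubiquitin ligase subunit that recognises phosphorylated beta-catenin, had 5.68 to 6.65 CPM in ERBB2 KO and 2.56 to 4.73 CPM in WT (0.71, adjusted p = 0.361). Dvl2, which passes the signal from Frizzled, had 66.5 to 141 CPM in ERBB2 KO and 61.5 to 63.3 CPM in WT (0.65, adjusted p = 0.377). None of these 4 genes passed, and their groups did not overlap.

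Of the 21 tested nuclear partners 9 had a positive and 12 a negative difference, with 0 passing. The corepressor Ctbp2 had 55.6, 65.3 and 65.6 CPM in ERBB2 KO 1 to 3, against 84.2, 88.5 and 82.9 CPM in WT 1 to 3 (log2 difference -0.45, SE 0.16, limma adjusted p = 0.350). Its relative Ctbp1 had 90.1, 104 and 109 CPM in ERBB2 KO 1 to 3, against 114, 211 and 165 CPM in WT 1 to 3 (-0.65, adjusted p = 0.350). Neither gene overlapped between the groups. Tle2, a Groucho corepressor, had 0.727 to 3.92 CPM in ERBB2 KO and 0.161 to 1.00 CPM in WT, and the acetyltransferase gene Ep300 had 91.9 to 117 CPM in ERBB2 KO and 70.3 to 94.0 CPM in WT.

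Of 18 other genes known as Wnt targets in some tissue, 7 were tested, 5 higher and 2 lower in ERBB2 KO, and 0 passed. Bmp4, a secreted growth factor, had 157, 74.4 and 35.1 CPM in ERBB2 KO 1 to 3, against 62.3, 0.403 and 0.528 CPM in WT 1 to 3. WT 1 lay within the ERBB2 KO range and the other WT libraries near 0 (log2 difference 3.88, SE 1.43, limma adjusted p = 0.350). Without WT 1 it passed (5.69, adjusted p = 0.0169), and without ERBB2 KO 1, WT 2 and WT 3 its sign turned (-0.28). Msx1, a homeobox factor, had 27.1, 4.58 and 5.82 CPM in ERBB2 KO 1 to 3, against 10.4, 0 and 0 CPM in WT 1 to 3 (adjusted p = 0.412), so that WT 1 again stood with ERBB2 KO. The nuclear receptor gene Nr4a2 had 13.9, 16.9 and 12.4 CPM in ERBB2 KO 1 to 3, against 8.65, 7.25 and 9.20 CPM in WT 1 to 3, without overlap (0.71, adjusted p = 0.350). Sp5 and Ascl2, direct targets in other tissues, were at or below 0.273 CPM in every library.

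Beta-catenin also links cadherins to the cytoskeleton, and of 12 genes for its junction partners 5 were tested, 2 higher and 3 lower in ERBB2 KO. Cdh2, which encodes N-cadherin, had 3.14, 7.63 and 4.05 CPM in ERBB2 KO 1 to 3, against 13.9, 318 and 217 CPM in WT 1 to 3. Every ERBB2 KO library was below every WT library, but WT 1 stood far nearer to the ERBB2 KO libraries than to WT 2 and WT 3. The log2 difference was -4.16 (SE 1.07, limma adjusted p = 0.321) and -5.54 without WT 1, where it passed (adjusted p = 0.00415). Ctnnd1, the gene of p120-catenin, which keeps cadherins at the surface, had 34.3, 29.8 and 19.0 CPM in ERBB2 KO 1 to 3, against 71.2, 63.2 and 45.9 CPM in WT 1 to 3 (log2 difference -1.11, SE 0.28, limma adjusted p = 0.321). Ctnna1, the alpha-catenin gene, had 144 to 154 CPM in ERBB2 KO 1 to 3, against 128, 309 and 264 CPM in WT 1 to 3 (-0.55, adjusted p = 0.477). Cdh1, which encodes E-cadherin, had 10.0 CPM in WT 3 and at most 0.336 CPM in any other library.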

How the data were processed

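The authors deposited 1 table of expression values, read here as log2-transformed CPM that include a small prior, because all columns share the lowest value of -2.48. The submitters' processing notes name mm10. The RNA sequencing methods mention alignment to GRCm39 with Bwa and Samtools ahead of mutation calling, in conflict with mm10, and whether that alignment gave these values is not stated. The counting tool and annotation are not given in the sources used here. Linear CPM was recovered by undoing the log2 and taking off the floor of 0.179 CPM, and 100% of the values were then whole reads within 0.1 of a read. The 14 rows whose symbol reads as a date hold 0.0966% to 0.184% of the reads and were left out of the tests.

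The 11803 genes that reached 1 CPM in 3 or more libraries were tested for a difference between the groups on log2(CPM + 1). The model held group alone and was fitted in limma 3.58.1 (R 4.3.3) with a trended prior variance, and two-sided p-values were adjusted after Benjamini-Hochberg over all tested genes (threshold 0.05). The fit was checked on simulated reads with independent libraries and the same spread setting for all genes. Such data lack the likeness seen between some libraries here, so the check does not cover it. Shares were compared by exact permutation tests. Coordinates and overlaps are from RefSeq (GRCm38.p6), whose table gives no strand. In it Ctnnb1, Apc, Axin1, Tcf7l2 and Lrp6 each overlap a microRNA or a predicted gene, so their reads may be shared. The members and lists were chosen with earlier results of these data known. All 10 members are named, with up to 4 tested genes per list with the smallest unadjusted p, and for each tested member the 2 genes with the highest r. Genes named outside these rules are said to be so, check the labels, or were chosen after their values were seen (Lgr5, Sp5, Ascl2, Cdh1 and those passing with array weights). The alternatives were other pseudocounts, filters and scalings, voom, array weights, a replicate block and leaving out libraries. Depth limits values under about 3 reads (0.226 to 0.336 CPM).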

Additional observations from a re-analysis of the deposited data

How the results depend on the processing

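Over 18 alternatives, 143 of 159 values of the 9 tested members kept their direction and their side of the threshold. With array quality weights 1759 genes and 3 members (Rnf43, Apc and Lef1) passed, with 16 of the 74 list genes, against 0 of each with equal weights. When each library was left out in turn, 0 to 146 genes passed, 0 members passed, and the groups did not overlap in 0 to 4 of the 9 members, beside 22.9% to 42.5% of all tested genes. Those 4 were Rnf43, Apc, Ctnnb1 and Lef1 without ERBB2 KO 1. Leaving out each library gave a log2 difference of -0.22 to 0.00875 for Axin1, -0.24 to 0.0751 for Tcf7 and -0.14 to 0.44 for Tcf7l2, and of -0.15 to 0.11 for Kremen1 and -0.0791 to 0.23 for Ctnnal1, so that their signs turned. Leaving out WT 2 and WT 3, a choice made after seeing the data, gave 0.21 for Axin1, 0.0959 for Apc, 0.13 for Tcf7 and -0.69 for Tcf7l2. Of list genes it gave 0.0329 for Fzd3, -0.15 for Msx1, 0.0451 for Wisp1 and 0.22 for Ctnna1. Leaving out ERBB2 KO 1 too, likewise chosen later, gave 0.0610 for Axin1 and -0.50 for Tcf7l2, and 0.0363 for Fzd3, -0.28 for Bmp4, -0.88 for Msx1 and 0.20 for Ctnna1. In these fits WT 1, alone in its group, was assumed to vary like ERBB2 KO libraries. With array quality weights Kremen1 turned to 0.0472. The causes of these turns were not tested beyond the leaving out itself. Leaving out each library moved the difference in share, in percentage points, from -0.491 to 0.391 for Tcf7, from -9.56 to 3.69 for Tcf7l1, from -0.833 to 18.9 for Tcf7l2 and from -8.85 to -1.4 for Lef1. Dividing reads by transcript length turned that of Tcf7 to 0.0748.

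Same-numbered libraries did not deviate together (correlations -0.216, -0.158 and -0.0464), so the numbers were not taken as pairs. With a replicate block 0 genes and 0 members passed, and 1286 genes had an unadjusted p below 0.05, against 1561 without it. Axin2, Lef1, Tcf7 and Rnf43 rest on few reads. Calls depend most on ERBB2 KO 1 and WT 1. With 3 libraries a group, intervals of the members remain wide, and how the libraries relate to lines and clones cannot be told apart from the genotype.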
